A study of Mus musculus with 12 samples.

Results

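All 6 arrays of cells that carry the Gata6 reporter were set against all 6 arrays of cells that do not, in the telogen (resting phase) back-skin epidermis of female Gata6-mTomato mice on a C57BL6/CBA background. The Gata6+ side holds 3 arrays of Tomato-positive cells with surface integrin alpha 6 (Gata6+Itga6+) and 3 of Tomato-positive cells without it (Gata6+Itga6-). The reporter-negative side holds 3 arrays of CD34+Itga6+ cells (CD34+, the gate for bulge stem cells) and 3 of the Itga6+ cells that carry neither marker (remaining basal). Members were chosen by the reporter named in the labels, so the comparison takes in all 12 arrays of the series, and each population had equal weight: the mean of the 2 Gata6+ population means minus the mean of the 2 reporter-negative population means. All mice, on both sides, carry the reporter, and the study's design text says that they were matched for age and sex without giving the age. The labels do not say whether an array holds the cells of 1 mouse or of a pool, and call the arrays of a population biological replicates, so the p-values measure the spread between these arrays. The labels give no number of cells sorted, and in RNA from sorted populations fewer cells of a type and less RNA per cell cannot be told apart.

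GATA6 is a zinc finger transcription factor that binds GATA sequences in DNA. In mouse skin it is known from the upper part of the pilosebaceous unit, the junctional zone and the sebaceous duct, whose cells renew the channel that joins the hair follicle and the sebaceous gland to the skin surface. Itga6 pairs with Itgb4 in hemidesmosomes, which hold basal cells to the basement membrane, and cells lose both when they leave the basal layer to differentiate. Every reporter-negative cell here was sorted with Itga6, so only the Gata6+ side has cells without it. The side comparison therefore mixes reporter and Itga6 status in its Gata6+Itga6- part, while the comparison of Gata6+Itga6+ cells with the same reporter-negative cells holds Itga6 status constant. Status of Itga6 within the Gata6+ side was tested as a second factor, as Gata6+Itga6- minus Gata6+Itga6+ cells.

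Levels are log2 of the intensity plus 1, the median over a gene's exon probe sets, and changes are differences of such levels with the standard error (SE) of a limma fit to the 12 arrays. The threshold for a call was an adjusted p of 0.05 (Benjamini-Hochberg, 17853 genes). A level of 2.46, below which 95% of the olfactory and vomeronasal receptor levels fell, served as the level of silent genes, and a fold against a mean under it is a lower bound. Correlation over genes between arrays was 0.935 to 0.957 within a population, 0.858 to 0.924 between the populations of a side and 0.828 to 0.941 across sides. The array upper quartile of intensity was 13.2 to 16.6 on the Gata6+ side and 12.1 to 17.6 on the reporter-negative side. By population it was 15.7 to 16.6 for Gata6+Itga6+, 13.2 to 15.5 for Gata6+Itga6-, 13.8 to 17.6 for CD34+ and 12.1 to 16.0 for remaining basal arrays. Gata6 itself had lowest, median and highest levels of 4.18, 5.30 and 5.89 on the Gata6+ side, against 2.38, 2.74 and 3.17 on the reporter-negative side, a change of 2.33 ± 0.15 (adjusted p = 9.9e-06, limma). All 6 Gata6+ arrays lay above all 6 reporter-negative arrays. One reporter-negative array stood apart: the Gata6 probe set that differed most between the sides read 7.41 to 9.66 on the Gata6+ arrays, against 5.73 in remaining basal replicate 3 and 0.95 to 3.15 on the other 5 reporter-negative arrays. Counts are therefore also given without that array.

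Of 17853 genes, 969 (5.43%) were called between all Gata6+ and all reporter-negative cells, 569 (3.19%) higher and 400 (2.24%) lower in Gata6+ cells. Against the same reporter-negative cells, 403 genes (2.26%) were called in Gata6+Itga6+ cells alone and 1206 (6.76%) in Gata6+Itga6- cells alone. A gene was counted as common to both Gata6+ populations when it was called in the same direction in all 3 of these comparisons, which share their reporter-negative arrays. Common genes numbered 282 (1.58%), 163 of them (0.913%) higher and 119 (0.667%) lower. Without remaining basal replicate 3 there were 1055 called genes, 693 higher and 362 lower, and 332 common genes, 212 higher and 120 lower. Without Gata6+Itga6+ replicate 1 or replicate 3, common genes numbered 177 and 180. With the mean over probe sets as the gene level there were 1567 called and 478 common genes, and a fit of 1 mean per side, which counts differences between the populations of a side as error, gave 226 called genes, 141 of them common. With a gene's brightest probe set 170 genes were common, and genes named below that were then no longer called are pointed out where they occur. The split of common genes changed with the scaling of the arrays: it was 151 higher and 169 lower after quantile normalization of the gene values, and 125 higher and 142 lower with each array's brightness as a covariate. With that covariate the genes called in Gata6+Itga6+ cells alone went from 273 higher and 130 lower to 170 and 156.

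The 2 directions differed in how far they held against each reporter-negative population. Of the 163 common higher genes, 57 were called in all 4 pairs of 1 Gata6+ and 1 reporter-negative population, and 127 had no overlap between the 6 Gata6+ and the 6 reporter-negative arrays. Of the 119 common lower genes, 8 were called in all 4 pairs and 35 had no overlap. Over all genes, 65 (0.364%) were called in all 4 pairs, and the arrays of 335 (1.88%) did not overlap. Between the 2 reporter-negative populations themselves, 892 genes (5.0%) were called: 93 of the 119 common lower genes were higher in CD34+ than in remaining basal cells and 3 were lower. Of the 163 common higher genes, 14 were higher and 41 lower in CD34+ than in remaining basal cells. The median change of the common lower genes was -2.29 in Gata6+Itga6+ minus CD34+ cells and -0.086 in Gata6+Itga6+ minus remaining basal cells, and for the common higher genes the same medians were 1.77 and 1.24. CD34+ cells held the highest mean level of 109 of the 119 lower genes, and Gata6+Itga6- cells held that of 128 of the 163 higher genes. The common lower genes are thus mostly genes at a high level in CD34+ cells. By mean level most common higher genes lay above both reporter-negative populations, as the heat map of all 282 genes shows. Calls were fewer: in Gata6+Itga6+ minus remaining basal cells, 89 of the 163 higher and 15 of the 119 lower genes were called in that direction.

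**Figure D1:**
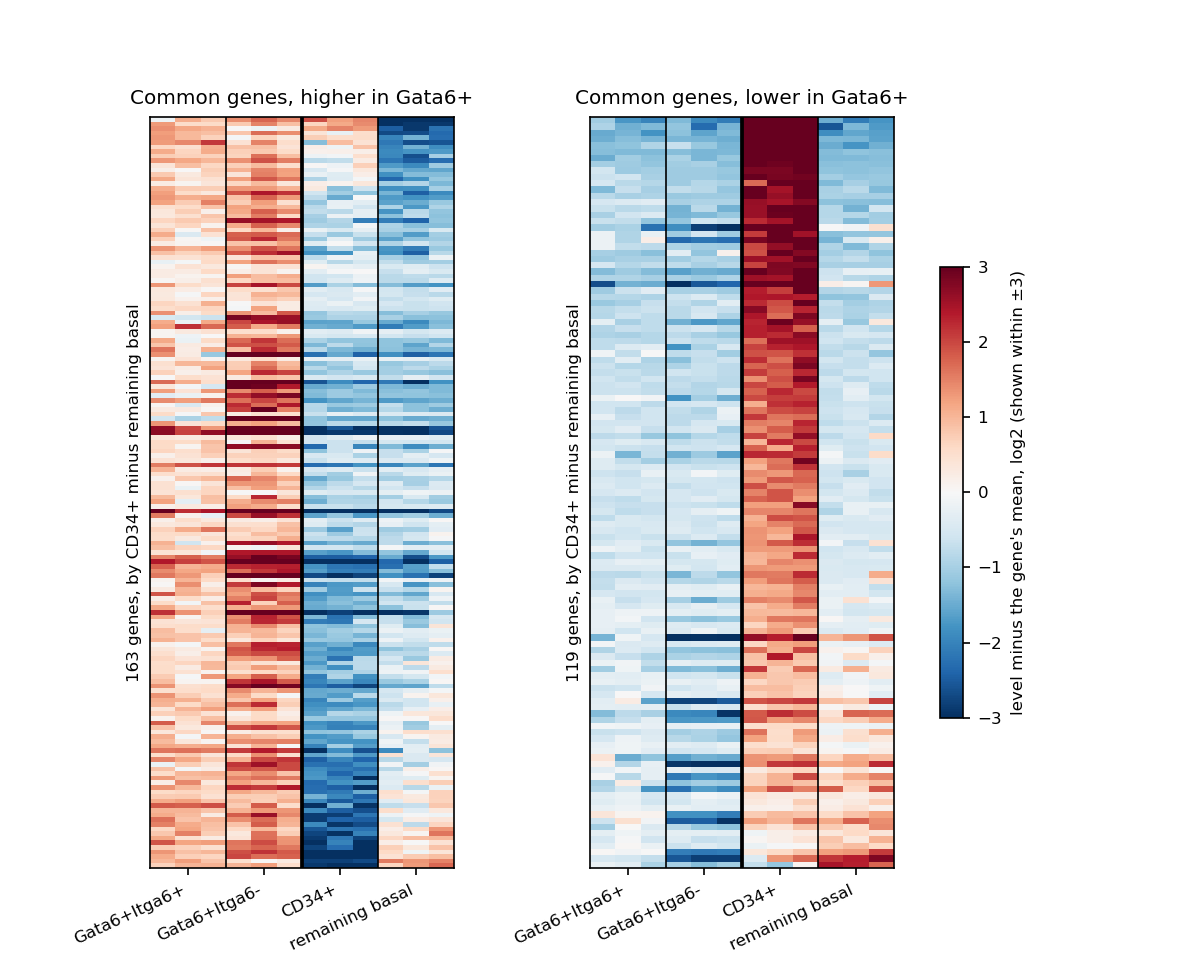
Levels of the 163 common higher genes (left) and the 119 common lower genes (right) on the 12 arrays, 3 columns per population, as log2 level minus the gene's mean over all arrays; genes are sorted by CD34+ minus remaining basal. The Gata6+ columns stand above both reporter-negative populations for most higher genes, while for most lower genes it is the CD34+ columns that stand above the other 3 populations.

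Genes of the upper follicle stood at the head of the higher set. In the list of upper follicle and junctional zone genes, 11 of 15 measured members were higher in Gata6+ cells, none was lower, and 8 were common to both Gata6+ populations, with a median change of 1.93 over the list against 0.0020 over all genes. The list was chosen with earlier results of these data known, so its counts are a description and no independent support. Cst6 is also a member of the spinous and granular list below. Defb6, a beta-defensin, had lowest, median and highest levels of 7.58, 8.87 and 9.57 in Gata6+ cells, against 1.72, 1.99 and 2.65 in reporter-negative cells. The change was 6.67 ± 0.19, at least 75.5-fold higher, the largest of the named genes (adjusted p = 3.48e-08), and reporter-negative cells lay at or near the level of silent genes. Krt79, a keratin of the cells that line the follicle canal, read 8.19, 7.85 and 7.68 on the Gata6+Itga6+ arrays and 9.61, 9.53 and 9.43 on the Gata6+Itga6- arrays, against 2.57, 2.70 and 2.62 on the CD34+ arrays and 3.44, 2.57 and 3.35 on the remaining basal arrays. Its change of 5.84 ± 0.15 was 57.2-fold (adjusted p = 2.3e-08). Cst6, cystatin E/M, an inhibitor of cysteine proteases in the cornifying epidermis, had 6.51, 8.41 and 9.28 as lowest, median and highest level in Gata6+ cells, against 2.05, 2.14 and 2.65 in reporter-negative cells, and a change of 5.87 ± 0.22. For all 3 genes the sides were far apart, and within the Gata6+ side all Gata6+Itga6- arrays lay above all Gata6+Itga6+ arrays.

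Surface markers of this region followed with smaller changes. Lrig1, a membrane protein that restrains ErbB receptors and marks stem cells of the junctional zone, read 5.13, 5.54 and 6.03 on the Gata6+Itga6+ arrays and 5.19, 5.06 and 5.43 on the Gata6+Itga6- arrays, against 3.34, 2.79 and 3.78 on the CD34+ arrays and 3.35, 3.42 and 4.09 on the remaining basal arrays. Its change was 1.93 ± 0.21 (adjusted p = 0.000335), and the 2 Gata6+ populations overlapped. Plet1, a surface protein of the same region, changed by 2.84 ± 0.19 (adjusted p = 1.03e-05). Krt17, a keratin of follicle and duct epithelium, changed by 2.11 ± 0.21, and Fst, the activin and BMP antagonist follistatin, by 1.23 ± 0.13. Fst was common by the rule, with mean levels (± SD, n = 3) of 7.64 ± 0.17 on the Gata6+Itga6+ arrays and 6.49 ± 0.22 on the Gata6+Itga6- arrays, against 7.76 ± 0.18 on the CD34+ arrays and 3.92 ± 0.34 on the remaining basal arrays. Of the 4 populations the remaining basal cells were the low one, and in the pair of Gata6+Itga6- and CD34+ cells Fst was called lower in the Gata6+ cells.

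Promoters bear on a factor that binds GATA sequences, and the 3 common higher genes of largest change with an entry in the RefSeq promoter table (GRCm38.p6) are shown for that reason: 250 bases before the annotated start, 5′ to 3′ on the gene's strand, with copies of GATAA or its reverse complement TTATC in capitals. Of the common genes, 122 of the 163 higher and 92 of the 119 lower ones had an entry, some of them with more than 1 annotated start.
Defb6 (chr8:19225228-19225477, plus strand): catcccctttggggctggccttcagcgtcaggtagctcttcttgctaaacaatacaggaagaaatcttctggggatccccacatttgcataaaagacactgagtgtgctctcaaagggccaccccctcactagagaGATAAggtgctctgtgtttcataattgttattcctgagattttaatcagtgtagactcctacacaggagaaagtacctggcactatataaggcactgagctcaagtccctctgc
Aadac (chr3:60031538-60031787, plus strand): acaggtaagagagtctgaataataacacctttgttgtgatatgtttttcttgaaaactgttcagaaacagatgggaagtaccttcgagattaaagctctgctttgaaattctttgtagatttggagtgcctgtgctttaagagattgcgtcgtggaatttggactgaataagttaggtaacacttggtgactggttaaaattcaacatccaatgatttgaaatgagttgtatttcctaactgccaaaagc
Krt79 (chr15:101940325-101940574, minus strand): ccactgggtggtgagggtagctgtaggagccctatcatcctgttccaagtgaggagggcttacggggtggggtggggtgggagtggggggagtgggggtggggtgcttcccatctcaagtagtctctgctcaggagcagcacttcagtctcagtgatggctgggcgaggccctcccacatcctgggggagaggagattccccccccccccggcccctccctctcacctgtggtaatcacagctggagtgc
GATAA, searched on both strands, was in 39 of 169 promoters of common higher genes (23.1%), in 21 of 133 promoters of common lower genes (15.8%) and in 3359 of 17777 promoters of measured genes (18.9%). The Defb6 promoter held 1 copy, which starts 114 bases before the gene start, and the other 2 held none. A longer form, AGATAA, was in 8.28% of the higher, 3.76% of the lower and 8.17% of all promoters, and TGATAA was in 7.69%, 6.02% and 5.82%. Both longer forms contain GATAA. These are counts of letters in a window and no test was made of them.

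Genes of the spinous and granular layers, where keratinocytes build the cornified envelope, gave the largest number of common higher genes of any list, but not the largest share. Of 47 measured members, 18 were higher (38.3%, against 3.19% of all genes) and 1, Tgm5, was lower, with 11 common higher members and a median change of 0.35. In either direction 25.5% of this list was common, against 53.3% of the upper follicle list and 1.58% of all genes. Sprr1a, a cornified envelope precursor, had lowest, median and highest levels of 6.44, 8.84 and 9.82 in Gata6+ cells, against 2.26, 2.77 and 4.65 in reporter-negative cells, where the highest was remaining basal replicate 3. The change was 5.46 ± 0.35, 43.9-fold higher (adjusted p = 8.87e-06). Sprr4, its neighbour on the chromosome, spread widely in Gata6+Itga6+ cells, at 5.70, 4.56 and 3.18, and narrowly in Gata6+Itga6- cells, at 8.33, 8.46 and 8.43, against 2.08, 2.78 and 1.90 on the CD34+ arrays and 2.49, 1.87 and 2.17 on the remaining basal arrays. Its change was 4.23 ± 0.36. The lowest Gata6+Itga6+ array of Sprr4 was close to the highest reporter-negative one. Ivl, involucrin, next to both in the same gene cluster, changed by 2.72 ± 0.16 (adjusted p = 5.31e-06). Of 12 measured Sprr genes, these 2 were the only ones called between the sides.

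Desmosome and tight junction genes join keratinocytes to each other. Of 32 measured members, 13 were higher, 19 were not called, none was lower, 6 were common, and the median change was 0.47. Dsc1 and Dsg1a, among the common ones, are also counted in the spinous and granular list. Dsc1, a desmosomal cadherin of the upper epidermal layers, read 6.09, 5.81 and 5.23 on the Gata6+Itga6+ arrays and 8.43, 8.35 and 8.49 on the Gata6+Itga6- arrays, against 1.81, 1.53 and 1.74 on the CD34+ arrays and 2.70, 2.28 and 1.74 on the remaining basal arrays. It changed by 5.10 ± 0.18, at least 24.3-fold higher (adjusted p = 1.34e-07). Dsg1a, another desmosomal cadherin, had 7.77 ± 0.14 on the Gata6+Itga6+ arrays and 8.76 ± 0.10 on the Gata6+Itga6- arrays, against 4.22 ± 0.70 on the CD34+ arrays and 7.77 ± 0.27 on the remaining basal arrays, so that CD34+ cells alone stood low. The side change of Dsg1a was 2.27 ± 0.20 and its arrays overlapped between the sides. Marveld2, tricellulin, which seals the corners where 3 cells meet, had a smaller and tighter change of 1.79 ± 0.095 (adjusted p = 2.44e-06) and was called in all 4 pairs. Cldn1 and Cldn8, claudins of the tight junction strand, were also common, with changes of 1.18 ± 0.19 and 2.44 ± 0.36. None of 9 measured gap junction genes was called. With 5.43% of all genes called, a list of 9 is too short for that count to be a result. The nearest gene, Gja1, had a change of -1.73 ± 0.44 (adjusted p = 0.0508).

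**Figure D2:**
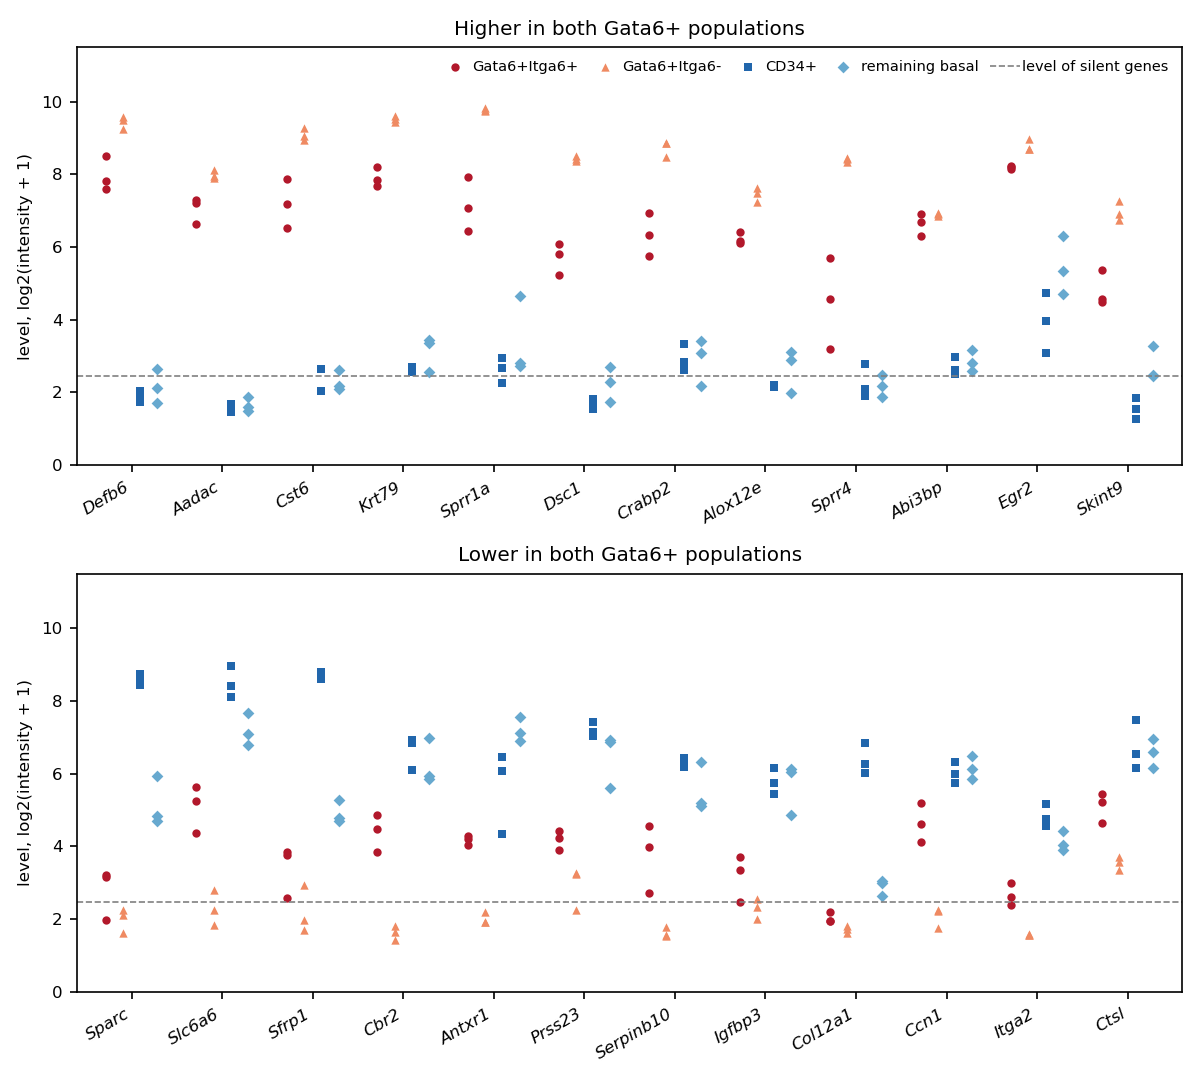
Levels on every array, log2(intensity + 1), of the 12 higher and 12 lower common genes of largest change whose 6 Gata6+ and 6 reporter-negative arrays do not overlap; each point is 1 array, and the dashed line marks the level of silent genes, 2.46. For most higher genes both reporter-negative populations lie near that line, while for the lower genes the Gata6+Itga6- arrays lie near it and the Gata6+Itga6+ arrays often lie between them and the reporter-negative arrays.

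Lipid genes supplied further common members with large changes. Of 31 measured barrier lipid genes, 13 were higher, none was lower and 4 were common (Alox12e, Abca12, Lipm and Acer1), with a median change of 0.39. The brightest probe set gave 7 higher ones. Alox12e, an epidermal lipoxygenase, had lowest, median and highest levels of 6.10, 6.82 and 7.61 in Gata6+ cells, against 1.97, 2.18 and 3.11 in reporter-negative cells, a change of 4.42 ± 0.17 (adjusted p = 2.85e-07). Lipm, a lipase of the granular layer, changed by 2.85 ± 0.20, and Abca12, which loads lipid into lamellar granules, by 2.42 ± 0.17. Both were lower in CD34+ than in remaining basal cells, so their distance from the 2 reporter-negative populations differed.

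Of 24 genes for long-chain acyl-CoA and fatty acid metabolism, 5 were higher, 4 of them common, and 1 was lower, and with the brightest probe set 3 were higher and without remaining basal replicate 3 it was 8. The acyl-CoA synthetases activate long-chain fatty acids. Acsl4 read 5.36, 6.32 and 5.85 on the Gata6+Itga6+ arrays and 5.94, 5.27 and 5.69 on the Gata6+Itga6- arrays, against 2.69, 2.62 and 2.43 on the CD34+ arrays and 2.02, 2.44 and 2.88 on the remaining basal arrays, a change of 3.22 ± 0.20 (9.33-fold). Its difference between the Gata6+ populations was not called (-0.21 ± 0.28, adjusted p = 0.857). Acsl5 changed by 2.01 ± 0.17 and within the Gata6+ side was higher without Itga6 by 1.34 (adjusted p = 0.0173). Acsl1 changed by 1.97 ± 0.17, but the Gata6+ populations, at 5.70 ± 0.19 and 5.54 ± 0.18, were nearer to remaining basal cells, at 4.87 ± 0.51, than to CD34+ cells, at 2.44 ± 0.29. The other 2 measured Acsl genes were not called.

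Aadac, an esterase of the endoplasmic reticulum, had the second largest change of the common genes. It read 7.28, 6.63 and 7.22 on the Gata6+Itga6+ arrays and 7.94, 7.91 and 8.11 on the Gata6+Itga6- arrays, against 1.46, 1.67 and 1.68 on the CD34+ arrays and 1.60, 1.49 and 1.88 on the remaining basal arrays. The change of 5.89 ± 0.12 was at least 33.2-fold (adjusted p = 5.42e-09), and every reporter-negative array was under the level of silent genes. Crabp2, which carries retinoic acid to its nuclear receptor, had lowest, median and highest levels of 5.74, 7.70 and 8.86 in Gata6+ cells, against 2.18, 2.96 and 3.41 in reporter-negative cells, and a change of 4.62 ± 0.25. Its relative Crabp1 went the other way, with a change of -1.11 ± 0.12, and was over the level of silent genes in CD34+ cells alone, at 3.91 ± 0.36. With its brightest probe set the change of Crabp1 was 0.286 and not called. Ptgr1, which inactivates prostaglandins and leukotrienes, changed by 3.59 ± 0.24 (adjusted p = 1.03e-05) and was called in all 4 pairs. Insig2, which holds back sterol synthesis, changed by 2.98 ± 0.33, and 2 of 20 cholesterol synthesis and transport genes, Sqle and Stard4, were common with changes of 1.10 ± 0.11 and 1.22 ± 0.089, though neither was called with the brightest probe set. In the sebaceous gland list Insig2 was the common member, 5 of 27 genes were higher and none was lower, and the median change was 0.020. In that list 2 genes were higher with the brightest probe set.

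Of 112 measured transcription factors in the epidermal list, which does not hold Gata6 or Egr2, 9 were higher and 9 lower, 3 of them common higher and 4 common lower (6.25% common, against 1.58% of all genes), with a median change of -0.045. Grhl3, a grainyhead factor of barrier formation, read 5.10, 4.78 and 5.24 on the Gata6+Itga6+ arrays and 6.42, 6.59 and 6.55 on the Gata6+Itga6- arrays, against 2.94, 2.91 and 2.89 on the CD34+ arrays and 3.81, 3.80 and 4.19 on the remaining basal arrays. Its change of 2.36 ± 0.099 was called in all 4 pairs (adjusted p = 4.94e-07). Grhl1 changed by 2.52 ± 0.21 and Zfp750, a factor of terminal differentiation, by 2.72 ± 0.22. Grhl2, the third member, was not called (change -0.79 ± 0.33, adjusted p = 0.272). The common lower factors were Tfap2b (-1.53 ± 0.13), Maf (-1.87 ± 0.17), Gli2 (-1.19 ± 0.14) and Id3 (-1.58 ± 0.25), all 4 higher in CD34+ than in remaining basal cells, and with the brightest probe set in place of the median the change of Gli2 turned to 0.049. The list's counts depended on the gene summary, with 14 higher and 5 lower for the brightest probe set and 22 higher and 17 lower for the mean over probe sets. Egr2, an immediate early zinc finger factor, was the one called gene among 24 genes of dissociation stress: it read 8.19, 8.23 and 8.15 on the Gata6+Itga6+ arrays and 8.68, 8.98 and 8.68 on the Gata6+Itga6- arrays, against 3.08, 4.73 and 3.96 on the CD34+ arrays and 4.71, 6.30 and 5.35 on the remaining basal arrays. The 23 other stress genes were not called, so 4.17% of the list was called, near the 5.43% of all genes. The median change of the list was -0.11. Cdkn1a, the p21 inhibitor of cyclin-dependent kinases, was the one called gene of 19 cell cycle inhibitors (5.26%, near the share of all genes), with a change of 3.05 ± 0.14. For Cdkn1a, Gata6+Itga6+ cells, at 7.01 ± 0.23, were close to remaining basal cells, at 6.22 ± 0.37, while CD34+ cells lay at 2.61 ± 0.17.

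Some other common higher genes code for surface or matrix proteins. Of 10 measured Skint genes, which code for butyrophilin-like membrane proteins of keratinocytes, 6 were higher in Gata6+ cells and 5 of these were common (Skint3, Skint4, Skint8, Skint9 and Skint10). Of all genes 3.19% were higher and 0.913% common higher. Skint9 had lowest, median and highest levels of 4.49, 6.06 and 7.26 in Gata6+ cells, against 1.27, 2.14 and 3.27 in reporter-negative cells, and a change of 3.75 ± 0.20. Skint2 was called between the sides but was not common, and in Gata6+Itga6+ cells, at 1.89 ± 0.30, it lay under the level of silent genes. Skint8 counted as common, although in Gata6+Itga6+ cells, at 2.45, it was also just under that level. Abi3bp, an extracellular matrix protein, changed by 3.99 ± 0.14 (adjusted p = 1.21e-07), with 6.30, 6.67 and 6.91 on the Gata6+Itga6+ arrays and 6.92, 6.93 and 6.86 on the Gata6+Itga6- arrays, against 2.50, 2.61 and 2.99 on the CD34+ arrays and 2.80, 3.16 and 2.59 on the remaining basal arrays. Adgrl2, a latrophilin-type adhesion receptor, changed by 2.49 ± 0.23 and was called in all 4 pairs. Ly6d, a GPI-anchored surface protein, was high in both Gata6+ populations, at 7.98 ± 0.38 and 8.17 ± 0.30, and also in remaining basal cells, at 6.74 ± 0.21, against 3.26 ± 1.11 in CD34+ cells. Erbb3 and Notch2, receptors of the EGF and Notch pathways, were common with changes of 1.97 ± 0.27 and 1.10 ± 0.14. The Skint, Sprr, Acsl and Grhl families were picked for description after their values were seen.

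The common lower genes of largest change are described by their own values. Sparc, a matrix glycoprotein that binds collagen, had lowest, median and highest levels of 1.61, 2.18 and 3.21 in Gata6+ cells, against 4.69, 7.19 and 8.74 in reporter-negative cells. Its change was -4.50 ± 0.27, at least 21.5-fold lower (adjusted p = 5.97e-06), and CD34+ cells were above remaining basal cells by 3.46. Igfbp3, which binds insulin-like growth factors, read 3.36, 3.70 and 2.47 on the Gata6+Itga6+ arrays and 1.99, 2.56 and 2.33 on the Gata6+Itga6- arrays, against 5.44, 6.16 and 5.75 on the CD34+ arrays and 6.04, 4.86 and 6.12 on the remaining basal arrays. The change of -3.0 ± 0.28 (7.97-fold lower) was called against each reporter-negative population, and CD34+ and remaining basal cells differed by 0.12 (adjusted p = 0.949). Ccn1, a matricellular protein, fell by 2.73 (SE 0.20) and Prss23, a secreted serine protease, by 3.28 (SE 0.26).

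Slc6a6, the taurine transporter, had the second largest fall, with 4.36, 5.64 and 5.25 on the Gata6+Itga6+ arrays and 2.26, 2.80 and 1.84 on the Gata6+Itga6- arrays, against 8.41, 8.12 and 8.96 on the CD34+ arrays and 6.78, 7.08 and 7.65 on the remaining basal arrays. The change was -4.14 ± 0.27 (adjusted p = 8.42e-06). Cbr2, a carbonyl reductase, changed by -3.43 ± 0.25, with 4.39 ± 0.51 and 1.62 ± 0.20 in the Gata6+Itga6+ and Gata6+Itga6- populations, against 6.61 ± 0.46 on the CD34+ arrays and 6.26 ± 0.62 on the remaining basal arrays. In both genes the fall was graded, since Gata6+Itga6+ cells lay between Gata6+Itga6- and reporter-negative cells. Together with Sparc, Igfbp3, Ccn1 and Prss23, the genes called lower in all 4 pairs were Slc6a6, Cbr2, Itga2 and Bcar1. The change of Bcar1, an adaptor protein of integrin signalling, was small (-0.60 ± 0.087). With the brightest probe set it was -0.368 and not called.

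Of 23 measured hemidesmosome and basement membrane genes, which hold basal cells to the matrix below them, 11 were lower in Gata6+ cells, 12 were not called, none was higher, and 4 were common (Itga2, Itgb6, Col7a1 and Bcam), with a median change of -0.52. Itga2, a collagen receptor chain, read 2.39, 2.62 and 3.00 on the Gata6+Itga6+ arrays and 1.56, 1.57 and 1.59 on the Gata6+Itga6- arrays, against 5.17, 4.57 and 4.74 on the CD34+ arrays and 3.91, 4.04 and 4.42 on the remaining basal arrays, a change of -2.35 ± 0.14 (adjusted p = 5.31e-06). Col7a1, the collagen of anchoring fibrils, changed by -1.33 ± 0.13, and Bcam, a laminin receptor, by -1.45 ± 0.13. With the brightest probe set Col7a1 (-0.354), Bcam (-1.21) and Itgb6 (-0.093) were not called, which leaves Itga2 as the called member of the 4. The other 7 called members did not pass in Gata6+Itga6+ cells, and within the Gata6+ side 9 members of the list were lower without Itga6. Itga6 itself, used in the sort, was not called between the sides (change -0.56 ± 0.18, adjusted p = 0.126) and within the Gata6+ side was lower in the Itga6- cells by 1.27 (adjusted p = 0.0268).

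The bulge stem cell list had 27 measured genes: 12 were lower, 8 of them common, and 2 were higher, with a median change of -0.73. Sfrp1, a secreted Wnt antagonist, had lowest, median and highest levels of 1.71, 2.76 and 3.85 in Gata6+ cells, against 4.70, 6.94 and 8.80 in reporter-negative cells, a change of -4.00 ± 0.27. CD34+ cells were above remaining basal cells by 3.76. Cd34 itself, part of the sort, was at 1.78 ± 0.20 on the Gata6+Itga6+ arrays and 1.96 ± 0.19 on the Gata6+Itga6- arrays, against 7.95 ± 0.033 on the CD34+ arrays and 1.66 ± 0.16 on the remaining basal arrays, so its side change of -2.94 ± 0.096 is carried by 1 population. The same holds for Krt24, a keratin, at 8.73 ± 0.23 in CD34+ cells, and for Il31ra, a cytokine receptor, at 7.24 ± 0.45, and Pcolce2, an enhancer of procollagen processing, at 6.69 ± 0.64, each with the other 3 populations under the level of silent genes. Lgr5, a Wnt co-receptor and stem cell marker, and Angptl7 also had all 3 other populations under that level. With the brightest probe set the changes of Krt24 and Lgr5 were no longer below 0 (0.00056 and 0.061), and neither was called. The 2 higher members were Cd200, an immune checkpoint ligand (2.11 ± 0.23), and Barx2, a homeobox factor (1.62 ± 0.34).

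Keratins were read as a check of the cell type. Krt14 and Krt15 were not called between the sides, with changes of -0.28 ± 0.083 and -0.11 ± 0.074. Krt5 was lower, with a change of -1.59 ± 0.12 (adjusted p = 2.11e-05), and read 9.17 ± 0.066 on the Gata6+Itga6+ arrays and 6.67 ± 0.32 on the Gata6+Itga6- arrays, against 9.47 ± 0.15 on the CD34+ arrays and 9.54 ± 0.21 on the remaining basal arrays. Krt10, a suprabasal keratin, was common and higher by 1.45 ± 0.16, but Gata6+Itga6+ cells, at 9.50 ± 0.18, lay beside remaining basal cells, at 9.30 ± 0.20, and its partner Krt1 was not called (0.80 ± 0.24, adjusted p = 0.101). With the brightest probe set Krt10 was not called (0.619). Within the Gata6+ side Krt1 was lower without Itga6, at 4.77 ± 0.12 against 7.0 ± 0.80. Krt14 and Krt15 stood above 8 on all 12 arrays, so the labelled cell type, keratinocyte, was met on both sides.

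Itga6 status divided the called genes further. Between Gata6+Itga6- and Gata6+Itga6+ cells, 567 genes (3.18%) were called, 208 (1.17%) higher and 359 (2.01%) lower in Gata6+Itga6- cells. This difference is also the test of whether a gene's distance from the reporter-negative cells was the same in both Gata6+ populations. Of the 969 genes called between the sides, 276 (28.5%) were called in it, and of the 282 common genes 61 (21.6%). Among the 163 common higher genes, 46 had a higher level in Gata6+Itga6- cells, 2 a lower one and 115 were not called, and 130 had the larger change there. Among the 119 common lower genes, none was higher in Gata6+Itga6- cells, 13 were lower and 106 were not called. Of these 119 genes, 74 were under the level of silent genes in Gata6+Itga6+ cells and 99 in Gata6+Itga6- cells, where a difference could hardly show. With quantile normalization of the gene values the 567 became 651, of which 312 were higher and 339 lower, and with array brightness as a covariate 370, of which 183 were higher and 187 lower.

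The remaining called genes fell into unequal classes. Of the 569 higher genes, 309 were called in Gata6+Itga6- and not in Gata6+Itga6+ cells, and for 114 of these the difference between the 2 populations was itself called. A further 55 were called in Gata6+Itga6+ and not in Gata6+Itga6- cells, with the difference called for 16, and 42 were called in neither alone. Of the 400 lower genes, 239 were called in Gata6+Itga6- and not in Gata6+Itga6+ cells, with the difference called for 85, 5 were called in Gata6+Itga6+ and not in Gata6+Itga6- cells, and 37 in neither alone.

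**Figure D3:**
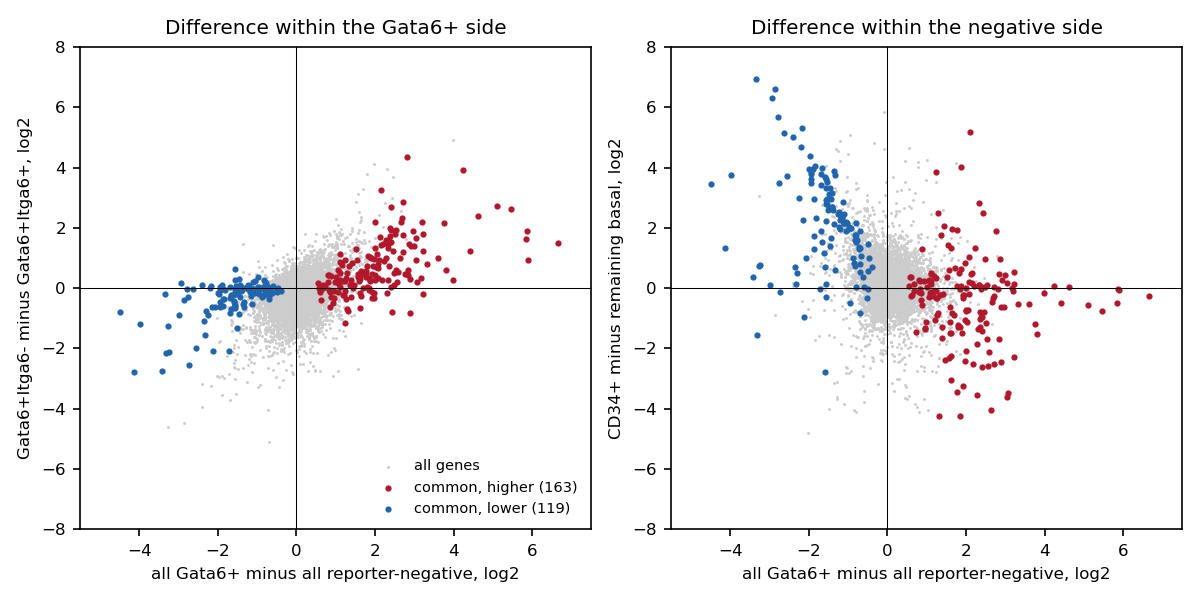
Change between all Gata6+ and all reporter-negative cells (log2, horizontal) against the difference within the Gata6+ side, Gata6+Itga6- minus Gata6+Itga6+ (left), and within the reporter-negative side, CD34+ minus remaining basal (right); each point is a gene, with common higher genes in red, common lower genes in blue and all 17853 genes in grey. On the left 130 of 163 common higher genes lie above 0, and on the right most common lower genes lie above 0, higher in CD34+ than in remaining basal cells.

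Among called genes, those furthest above their level in Gata6+Itga6+ cells when Itga6 was absent are given first. Krt23, a keratin, read 2.42, 2.04 and 2.21 on the Gata6+Itga6+ arrays and 6.70, 6.32 and 6.66 on the Gata6+Itga6- arrays, against 1.77, 1.44 and 1.44 on the CD34+ arrays and 1.75, 1.47 and 1.53 on the remaining basal arrays. It counted as common, although Gata6+Itga6+ cells were under the level of silent genes. Ear2, a secreted ribonuclease, had the largest difference of the named genes, 4.91 ± 0.52, with 2.90, 4.30 and 1.51 on the Gata6+Itga6+ arrays and 7.91, 7.81 and 7.72 on the Gata6+Itga6- arrays. Cldn4, a claudin, Cyp2b19, a keratinocyte epoxygenase, and Fcamr, an immunoglobulin receptor, differed between the Gata6+ populations by 4.1, 3.96 and 3.79. Gata6+Itga6+ cells were not called against reporter-negative cells for any of these 3 genes or for Ear2. Klk7, a protease of desquamation, and Pglyrp4, a peptidoglycan recognition protein, had the same form, with side changes of 2.45 ± 0.18 and 2.66 ± 0.36. Il22ra1, a receptor chain for interleukin 22, changed by 2.80 ± 0.47 without a called difference by Itga6 status (1.64 ± 0.67, adjusted p = 0.30). With the brightest probe set neither Il22ra1 (1.14) nor Cldn4 (0.554) was called between the sides.

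The largest Itga6-dependent falls were in genes that Gata6+Itga6+ cells shared with reporter-negative cells. Postn, periostin, read 6.53, 7.14 and 7.29 on the Gata6+Itga6+ arrays and 2.58, 2.65 and 1.92 on the Gata6+Itga6- arrays, against 9.53, 9.51 and 9.43 on the CD34+ arrays and 5.87, 6.27 and 7.11 on the remaining basal arrays. Mt2, a metallothionein, was at 6.56 ± 0.40 on the Gata6+Itga6+ arrays and 2.10 ± 0.30 on the Gata6+Itga6- arrays, against 6.75 ± 0.27 on the CD34+ arrays and 7.66 ± 0.26 on the remaining basal arrays. Ctnnal1, a relative of alpha-catenin, Ackr4, a scavenging chemokine receptor, Itgb1, the integrin beta 1 chain, and Cdh13, T-cadherin, had a lower level without Itga6 within the Gata6+ side, by 3.94, 3.73, 3.56 and 3.51. All 6 genes were called lower between the sides, and none was called in Gata6+Itga6+ cells against the reporter-negative cells. In each, the Gata6+Itga6- cells were the low population.

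Cell cycle genes were called for each Gata6+ population alone and between these 2, and hardly between the sides. Of 37 measured members, 1 (Top2a) was called between the sides (2.70%, against 5.43% of all genes), with a median change of 0.11. Against reporter-negative cells, 9 were higher in Gata6+Itga6+ cells (median change 0.55) and 4 lower in Gata6+Itga6- cells (median -0.35), where 2.26% and 6.76% of all genes were called. On the Gata6+ side 13 had a lower level without Itga6 than with it, where 3.18% of all genes were called. Top2a, a topoisomerase of dividing cells, was at 5.18 ± 0.19 on the Gata6+Itga6+ arrays and 2.41 ± 0.066 on the Gata6+Itga6- arrays, against 1.67 ± 0.13 on the CD34+ arrays and 3.78 ± 0.68 on the remaining basal arrays. At the other end, the common genes of large change that differed least by Itga6 status were Adgrl2 and Ly6d among the higher ones and Pcolce2, Il31ra, Krt24 and Cd34 among the lower ones. Their differences between Gata6+Itga6- and Gata6+Itga6+ cells ran from -0.19 (Krt24) to 0.20 (Ly6d). For Pcolce2, Il31ra, Krt24 and Cd34 both Gata6+ populations were under the level of silent genes, where a difference could hardly show.

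Lists of signalling genes held called genes in both directions, at shares of 30.4% for BMP and TGF-beta, 25% for Hedgehog and EGF, 17.0% for Wnt and 14.8% for Notch, against 5.43% of all genes. Of 46 BMP and TGF-beta genes, 12 were lower and 2 higher, with a median change of -0.20, and the common ones were Bmp7 and Fst (higher) and Nog, Id3 and Ltbp2 (lower). The brightest probe set gave 4 lower and 3 higher genes in this list, and by it neither Nog (0.015) nor Ltbp2 (-0.0066) was called. Tgfbi, a matrix protein induced by TGF-beta, was lower by 1.73 between the sides and was carried by Gata6+Itga6- cells, at 4.83 ± 0.62. Of 53 Wnt genes, 4 were higher and 5 lower, and the common ones, all lower, were Lgr5, Dkk3 and Sfrp1. By the brightest probe set neither Lgr5 (0.061) nor Dkk3 (-0.27) was called, and 2 Wnt genes were higher and 3 lower. Over all settings but that of 1 mean per side, single arrays left out included, 1 to 4 Wnt genes were higher and 3 to 8 lower. Of 27 Notch genes, the receptors Notch2 and Notch3 were higher (1.10 ± 0.14 and 0.71 ± 0.12) and the ligands Jag1 and Jag2 lower (-1.16 ± 0.28 and -0.50 ± 0.12). Notch2 (1.39), Notch3 (0.060) and Jag2 (0.25) were not called by the brightest probe set. Of 28 Hedgehog and EGF genes, Erbb2, Erbb3 and Lrig1 were higher and Gli1, Gli2, Cdon and Epgn lower. Of these, Erbb2 (0.711), Gli1 (0.291), Gli2 (0.049) and Epgn (0.071) were not called by that setting either. Of 22 interfollicular basal genes, 8 were lower and 3 higher, with a median change of -0.60 and 10 members lower without Itga6 within the Gata6+ side.

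Called genes of the metabolic and defence lists were mostly higher, at shares of 13.3% to 25% called, against 5.43% of all genes. Of 34 genes of the NRF2 and xenobiotic response, 5 were higher (3 with the brightest probe set), none was lower, and Aadac and Ahr, the aryl hydrocarbon receptor (2.00 ± 0.17), were common. Of 24 retinoid and steroid genes, 4 were higher and 2 lower. Aldh1a1, which makes retinoic acid, was called in Gata6+Itga6+ and not in Gata6+Itga6- cells, at 3.94 ± 0.68 and 3.03 ± 0.48, against 1.96 ± 0.13 on the CD34+ arrays and 2.06 ± 0.22 on the remaining basal arrays. Of 29 arachidonic acid and prostaglandin genes, 4 were higher and 2 lower. Ptgs1, cyclooxygenase 1, was common and higher (1.38 ± 0.20), and Ptgs2, cyclooxygenase 2, common and lower (-1.61 ± 0.25). With its brightest probe set the change of Ptgs2 was -0.924 and not called. Of 45 antimicrobial and defence genes, 5 were higher and 1 lower, and Defb1 (2.04 ± 0.27) and Defb6 were common. The bar chart of called members by list sets these shares beside those of all genes.

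**Figure D4:**
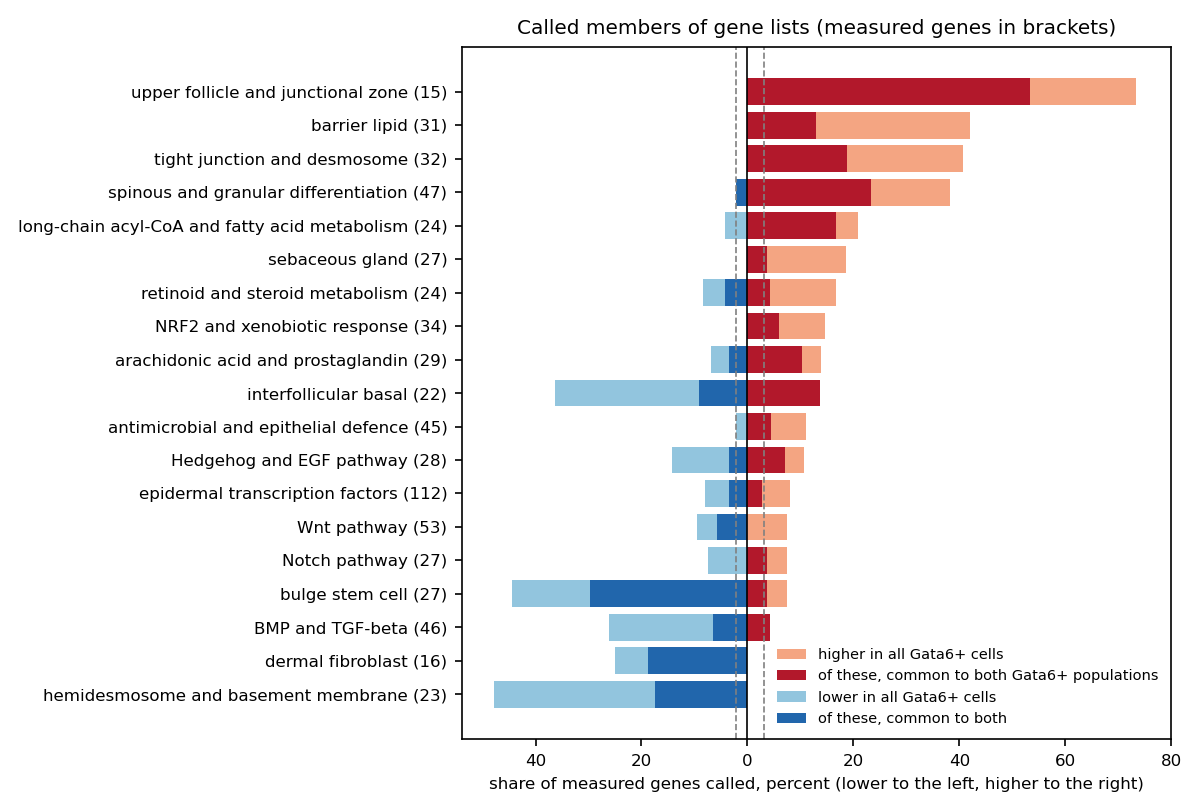
Share of each list's measured genes (number in brackets) called higher (right, light red) or lower (left, light blue) between all Gata6+ and all reporter-negative cells, in percent, with the part common to both Gata6+ populations in dark; dashed lines mark the shares over all genes, 3.19% higher and 2.24% lower. Lists with at least 4 called genes are shown, and upper follicle, barrier lipid, junction and differentiation genes reach furthest to the right, hemidesmosome and bulge genes furthest to the left.

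Neighbouring genes were sometimes common together. Of 281 common genes placed among 17676 measured coding genes, 28 were in 15 neighbouring pairs of the same direction, and 5 neighbouring pairs had opposite directions. The number of pairs for as many genes placed at random was not computed, and several pairs are members of the same gene family. The same-direction pairs of higher genes were Sprr1a and Sprr4, Sprr4 and Ivl, Skint4 and Skint3, Skint3 and Skint9, Sdr16c5 and Sdr16c6 (retinol dehydrogenase-like enzymes), Klhl8 and Hsd17b13, Pnpla2 and Cracr2b, and Pgrmc1 and Akap17b. Col6a2 and Col6a1, Duoxa1 and Duox1, and Plxna2 and Cd34 were among the 7 pairs of lower genes. Of these named genes, Pnpla2, Cracr2b, Pgrmc1, Col6a2 and Plxna2 were not called with the brightest probe set. Lgr5, lower, stood next to Tspan8, higher (-1.84 ± 0.084 and 1.40 ± 0.26). With its brightest probe set the change of Lgr5 was 0.061 and not called.

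Markers of other skin cells were counted in the same way. Of all genes 5.43% were called, and these lists have 8 to 23 measured genes. A count of 0 or 1 called genes in them cannot be told from that share. In the dermal fibroblast list 4 of 16 genes were called, all lower in Gata6+ cells (Col1a2, Col6a1, Col6a2 and Sparc), and 2 of them, Col1a2 and Col6a2, were not called with the brightest probe set. The mean level over the list was 1.94 to 1.98 on the Gata6+ arrays, against 2.15 to 2.78 on the reporter-negative arrays, and 15 of 16 members were under the level of silent genes on the Gata6+ side, against 9 of 16 on the reporter-negative side. These values move with the lower matrix genes described above, and their part in that result was not tested. By population, the mean over the list was highest in CD34+ cells, at 2.76, and 2.21 in remaining basal cells. On the Gata6+ side it was 1.94 with Itga6 and 1.96 without. Of the 16 members, 7 were over the level of silent genes, among them Col1a1, which was over it in CD34+ cells alone, at 2.83 ± 0.19. Col3a1, Dcn, Lum and Pdgfra were under it in all 4 populations. Cck, in the Merkel cell list, was lower and carried by CD34+ cells, and the other 7 measured Merkel cell genes were not called. Cd74, in the list of Langerhans cells and macrophages, was higher by 0.63 ± 0.15 (adjusted p = 0.0416) with all 4 population means under the level of silent genes. Krt17 (higher) and Krt6a (lower) were called in the companion layer list, and Cd74 and Krt6a were not called with the brightest probe set. No gene was called in the lists of T cells, melanocytes, endothelial and mural cells, adipocytes, muscle and erythrocytes, or hair shaft and inner root sheath.

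Remaining basal replicate 3, which read 5.73 on the Gata6 probe set named above, was the highest of its 3 arrays for 95 of the 163 common higher genes (58.3%), against 8279 of all 17853 genes (46.4%). Without it the upper follicle list gave 11 of 15 genes higher with a median change of 2.05, the spinous and granular list 18 of 47 higher with a median of 0.55, and the hemidesmosome list 12 of 23 lower with a median of -0.44. Its part in the smaller changes given above was not tested.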

How the data were processed

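RNA of 12 sorted samples, 3 for each of 4 populations, was amplified, labelled with biotin and hybridized to mouse exon arrays, per the labels' protocols. The authors deposited an intensity for each of 235932 exon probe sets, made with robust multi-array average processing (RMA) in Affymetrix Power Tools on the mouse build mm9, per the submitters' processing notes, with no versions stated. Since no source gives the scale, it was read as linear from the range of values (array medians 3.97 to 4.57, maxima 2172 to 2953) and all log2 levels and folds depend on it. RMA aligns the distributions of the arrays, which reduces any change common to most genes. Precision is limited by having 3 arrays per population.

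Of the probe sets, 221205 had 1 gene symbol and were used, 1684 had several and 13043 none. Symbols were brought up to date through a RefSeq gene table of GRCm38.p6 (15377 current, 2489 updated, 42 kept), which gave 17853 genes with a median of 10 probe sets. A gene's level was the median over probe sets of log2(intensity + 1), and the added 1 shrinks changes of dim genes. Under the level of silent genes, 2.46, lay 8745 genes in all populations.

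The 4 population means were estimated over the 12 arrays in 1 linear model (limma 3.58.1 in R 4.3.3, prior degrees of freedom 2.12, residual 8), and each comparison is a contrast of those means with Benjamini-Hochberg adjustment over all genes. Figures and counts were made with Python 3.11.15 and matplotlib 3.10.9. The fit was tested on simulated data. Alternatives covered the gene summary, the added constant, a filter on dim genes, normalization, array brightness, the variance model, blocks and each array left out.

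The members, 33 gene lists and tests were chosen with earlier results of these data known. Some lists share genes, such as Cst6, Dsc1, Dsg1a, Col17a1 and Postn, so their counts are not separate. By the rule used, the named genes are the sort genes, the 12 higher and 12 lower common genes of largest change without overlap between sides, the 6 and 6 called genes of largest Itga6 difference, the 6 common genes of smallest such difference among the 60 of largest change, the 6 largest called genes that are not common, up to 3 genes per list and the common transcription factors. Other genes were named after their values were seen.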

Additional observations from a re-analysis of the deposited data

Results flagged for a closer look

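The genes below were picked out because their distance from the reporter-negative cells differed between the 2 Gata6+ populations by a test of the difference itself (limma, adjusted p under 0.05 over all genes). The values are Gata6+Itga6- minus Gata6+Itga6+ cells on the log2 scale, over 3 arrays each.

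Among common higher genes the difference was 1.48 for Defb6, 0.943 for Aadac, 1.90 for Cst6, 1.61 for Krt79 and 2.63 for Sprr1a. It was 2.71 for Dsc1, 2.40 for Crabp2, 1.22 for Alox12e, 3.92 for Sprr4, 2.17 for Skint9 and 4.33 for Krt23. Each of these 11 genes was higher in both Gata6+ populations than in reporter-negative cells, and further from them in Gata6+Itga6- cells.

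Among higher genes that were not called in Gata6+Itga6+ cells, the difference was 4.91 for Ear2, 4.1 for Cldn4, 3.96 for Cyp2b19 and 3.79 for Fcamr.

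Among common lower genes the difference was -2.78 for Slc6a6, -2.76 for Cbr2, -2.16 for Antxr1, -2.12 for Serpinb10, -2.56 for Ccn1, -1.09 for Itga2 and -1.56 for Ctsl. These 7 genes stepped down, with Gata6+Itga6+ cells between the other Gata6+ cells and the mean of the reporter-negative cells.

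Among lower genes that were not called in Gata6+Itga6+ cells, the difference was -4.61 for Postn, -4.46 for Mt2, -3.94 for Ctnnal1, -3.73 for Ackr4, -3.56 for Itgb1 and -3.51 for Cdh13.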

How the results depend on the processing

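The 969 genes called between the sides became 1567 when probe sets were averaged and 226 (184 higher, 42 lower) with 1 mean per side in place of 1 per population. Of those 226 genes, 141 were common. The other 8 settings on all 12 arrays gave 798 to 1206, and leaving out single arrays 809 to 1055. The 282 common genes became 478 with averaged probe sets and 170 (133 higher, 37 lower) with the brightest probe set, 65 by the definition over all 4 pairs, and 177 to 332 without single arrays. Of the 282, 70 (55 higher, 15 lower) were common in each of 21 settings, and none was common in the opposite direction in any. In Gata6+Itga6+ cells the 403 called genes became 690 with averaged probe sets, 230 with the brightest probe set and 221 to 537 without single arrays; in Gata6+Itga6- cells the 1206 became 1926 with averaged probe sets and 869 to 1222 without single arrays. By Itga6 status the 567 became 995 with averaged probe sets, 370 with array brightness as a covariate and 285 to 626 without single arrays. Fewer arrays enter a fit that leaves one out; the cause of the other shifts was not tested.

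The main fit did not pair samples by replicate number. Deviations of arrays with the same number correlated at -0.144 to 0.279, with 5 of 18 pairs over 0.1. For pairs with other numbers the range was -0.240 to 0.269, with 4 of 36 over 0.1. Of 12 arrays, 6 correlated best with their own number, and these values do not settle whether the numbers pair the samples. With the replicate block, 960 genes were called between the sides and 260 were common, and with the letter of the array name as a block 954 and 261.

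Of 2331 recomputed changes of the 106 named genes, 2206 stayed on their side of the threshold with any called direction kept, 102 lost the call (51 of them with 1 mean per side), 17 gained it and 6 called ones turned direction. All 6 turned with the brightest probe set: Krt24 (0.00056), Lgr5 (0.061), Crabp1 (0.286), Jag2 (0.25), Gli2 (0.049) and Pglyrp3 (-0.52). So did the uncalled Thy1 (0.057) and Kit (-0.252), and Nog (0.015), Gli1 (0.291) and Epgn (0.071) from outside the 106. With that probe set 4 BMP and TGF-beta genes were lower in place of 12 and 7 barrier lipid genes higher in place of 13. With 1 mean per side 1 bulge gene was lower in place of 12, 2 hemidesmosome genes in place of 11 and no BMP and TGF-beta gene in place of 12, and 7 upper follicle, 6 spinous and granular, 6 junction and 6 barrier lipid genes were higher in place of 11, 18, 13 and 13. Dim genes lie near background, where changes are compressed.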
